A study of Rattus norvegicus with 6 samples.

Results

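A set of 96 circular RNAs (circRNAs) was drawn from the 4143 listed for rat dental follicle cells, because their host genes act in membrane trafficking or nuclear transport. Membership was by name alone: a host symbol beginning with Vps, Sec, Exoc, Snx, Rab, Cog, Trappc, Copb, Copg, Stx, Vamp, Nup, Xpo, Ipo or Tnpo and then a digit, or equal to Picalm, Epn2, Eps15 or Itsn1. The 96 circRNAs came from 64 host genes, and no circRNA of a Copb, Copg or Vamp gene or of Epn2 was listed. Of these, 57 circRNAs of 37 hosts fell in an endosome group (Vps, Snx, Rab, Stx, Picalm, Eps15, Itsn1), 2 of 2 hosts in the exocyst group, 17 of 12 hosts in a Golgi group (Sec, Cog, Trappc) and 20 of 13 hosts in a nuclear pore group (Nup, Xpo, Ipo, Tnpo). Group membership follows the prefix, so some hosts act elsewhere as well. Rab1a acts between endoplasmic reticulum and Golgi, and Sec63 and Sec11a at the endoplasmic reticulum.

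The cells were isolated from molar tooth germs of Sprague-Dawley rats aged 5 to 7 days and used at passage 3 to 4. Control cells were held for 28 days in alpha-modified Eagle medium with 5% serum. Induction cells were held for the same time in that medium plus 1% of a liquid containing dexamethasone, ascorbic acid and β-glycerophosphate (0.010 mmol/L, 0.028 mmol/L and 1.000 mol/L), used to drive osteogenic differentiation. The labels list 3 samples per group, from 3 rats per the treatment protocol and 4 per the design text, but each group is represented by 1 pooled column of counts.

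Cells move newly made proteins from the endoplasmic reticulum in COPII-coated vesicles through the Golgi to the surface, where the exocyst tethers secretory vesicles. Endocytosed cargo passes through endosomes, where Rab GTPases, sorting nexins and Vps complexes send it to lysosomes or back. Importins and exportins carry proteins through pores built of nucleoporins. In bone-forming tissue the secretory route carries procollagen, and in zebrafish loss of Sec24d or Sec23a disturbs collagen export and skeletal growth. A circRNA is made when a splice donor joins an acceptor that lies upstream of it, and is counted by reads across that back-splice junction. Its level depends on this splicing step and on its own stability, and does not measure the amount of the host's mRNA or protein.

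The listed counts came to 137740 in control and 164746 in induction, and ratios below are induction over control, on the totals behind the deposited TPM values (counts per 1000000, here without length correction). With 1 column per group there is no replicate error and no test. Intervals below on ratios and on shares of counts are exact 95% counting intervals. A circRNA is called higher or lower where its ratio was at least 2-fold and its interval excluded equal levels. Intervals on the share of circRNAs called are exact 95% binomial intervals over circRNAs. They take circRNAs as independent, which those of 1 host are not, and so may be too narrow. Across all 4143 circRNAs this rule called 18.5%, with 9.22% higher and 9.29% lower in induction. Fewer cells of a type and less RNA per cell cannot be told apart in these bulk columns. Of the connective tissue markers, Col1a1, Col3a1, Col12a1 and Runx2 hosted circRNAs and Postn did not, and the 5 epithelial markers hosted none. Endothelial, leukocyte, and muscle or nerve markers each had circRNAs from 1 of 5 genes, with sums of at most 50 counts in either column.

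Among the trafficking and transport circRNAs, 6 were called higher, 6 lower and 84 neither. That is 12.5% called (exact interval 6.63 to 20.8), against 18.5% of all listed circRNAs and 17.0% of the 3800 others without collagen hosts. The higher ones came from Vps54, Rab31, Rab21, Cog5, Sec63 and Xpo6, and the lower ones from Sec24d, Itsn1, Picalm, Rab31, Sec63 and Nup188. Rab31 and Sec63 therefore appear on both sides. The share of calls lies near the background, and the 96 circRNAs as a set are not shown to stand apart from it.

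The set as a whole held the same share of the listed reads in both columns. In control it had 1521 counts, 1.10% of those listed (1.05 to 1.16), and in induction 1797, or 1.09% (1.04 to 1.14). On the TPM totals that is a ratio of 1.08 (1.01 to 1.16), beside 1.10 for all listed circRNAs. The median log2 ratio per circRNA was 0.069, with quartiles at −0.59 and 0.69. Over all listed circRNAs the median was −0.054, with quartiles at −0.71 and 0.69. In number, 49 of the 96 had a ratio above 1 and 47 below.

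**Figure D1:**
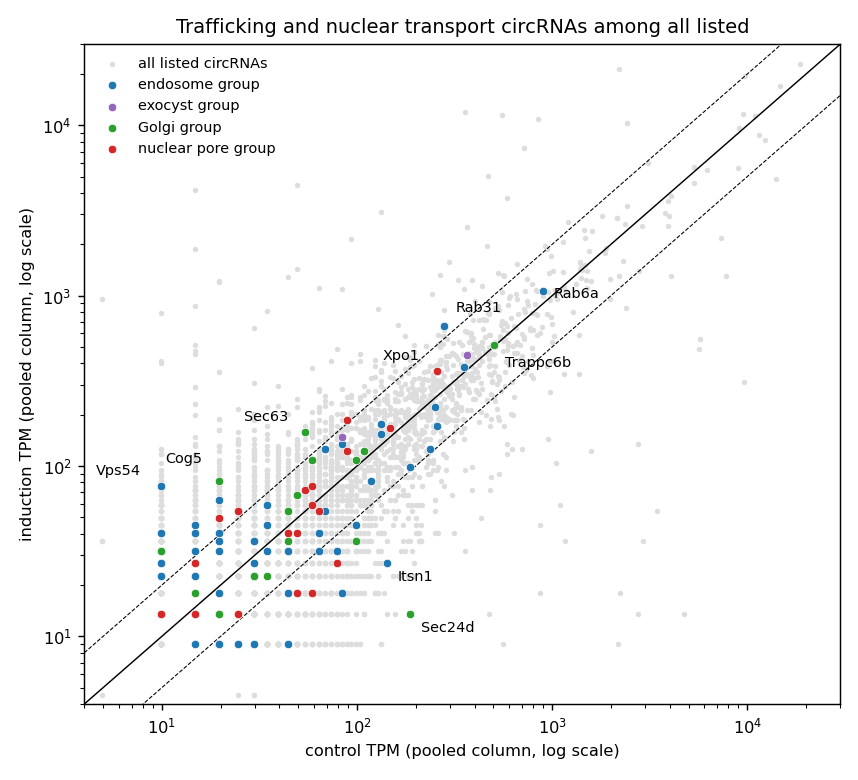
TPM in the pooled control column (x axis) and the pooled induction column (y axis), both on log scales, for all 4143 listed circRNAs in grey and for the 96 trafficking and transport circRNAs coloured by group. The solid line marks equal TPM and the dashed lines 2-fold differences; most coloured points lie between the dashed lines, Rab6a is the most abundant of them and Sec24d lies furthest below.

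Depth limits most of these comparisons. The median of both columns together was 16.5 counts, and 55 of the 96 circRNAs had under 20, against a median of 19 among all listed. Of those 55, 3 were called (5.45%, against 7.46% of all listed circRNAs in that range). With 20 to 49 counts, 7 of 26 were called (26.9% against 32.1%), and with 50 or more, 2 of 15 (13.3% against 28.1%), both of them higher. The shares of all listed circRNAs by depth include those of collagen hosts, and were not taken without them. A difference near 2-fold in the circRNAs under 20 counts was mostly not detectable at this depth.

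By group, the calls were 3 higher and 3 lower of 57 in the endosome group, 0 of 2 in the exocyst group, 2 higher and 2 lower of 17 in the Golgi group, and 1 higher and 1 lower of 20 in the nuclear pore group. The Golgi share of 23.5% has an interval of 6.81 to 49.9, which includes the background. That interval takes the 17 circRNAs of 12 hosts as independent. The summed counts of the endosome group were 898 and 1035 (ratio 1.06, 0.966 to 1.16), those of the Golgi group 282 and 314 (1.02, 0.867 to 1.20) and those of the nuclear pore group 250 and 316 (1.16, 0.979 to 1.37). None of these 3 sums differed beyond counting error, although with DESeq2 size factors the intervals of the endosome (log2 ratio 0.13) and nuclear pore (0.27) sums just excluded equal levels. The endosome sum turned from slightly above to slightly below equal without Rab31 (log2 ratio −0.050 in place of 0.080), an alternative chosen after seeing the data, and when scaled to the listed counts alone (−0.053). Without the Rab and Stx hosts it was below equal beyond counting error (−0.26, interval −0.45 to −0.062). Of the hosts then left, Itsn1 had 77 and 34 counts and Picalm 83 and 51. The Vps hosts had 52 and 79, the Snx hosts 238 and 244 and Eps15 6 and 8, so the drop was not general to these hosts.

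**Figure D2:**
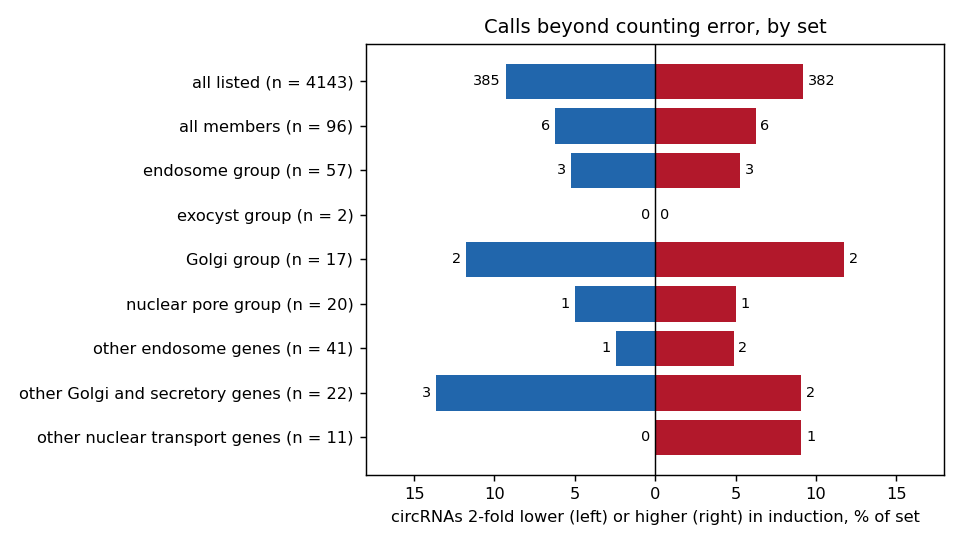
Percentage of circRNAs called 2-fold higher (red, right) or lower (blue, left) in induction, for all listed circRNAs, the 96 members, their 4 groups and the lists of other genes of the same pathways; the number of circRNAs stands at each bar. The 96 members have 6 calls on each side, and their bars are shorter than those of all listed circRNAs.

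Rab GTPases are the switches that give each membrane its identity, and their circRNAs held the largest part of the endosome counts, 421 in control and 580 in induction over 15 circRNAs of 10 hosts. Of these hosts, Rab11fip3 and Rab11fip5 are not GTPases but partners of Rab11. The most abundant circRNA of the whole set came from Rab6a, which acts in transport at the Golgi, with 183 and 236 counts (ratio 1.18, 0.971 to 1.44), rank 95 among all listed circRNAs by mean TPM. It did not differ beyond counting error. That of Rab11a, the GTPase of recycling endosomes, had 72 and 85 counts (1.08, 0.782 to 1.50), and that of Rab10 had 24 and 18.

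The called Rab circRNA with the most counts came from Rab31, a GTPase of traffic between the trans-Golgi network and endosomes. Its most abundant form lies at 113386175 to 113416653 of chromosome 9 (build Rnor_6.0). Control held 57 counts of it and induction 146, so that it was 2.35-fold higher (1.72 to 3.25), a call that is lost with an assumed variation of 40% per column. Rab21 is a GTPase of early endosomes that binds integrins, and its circRNA at 58270832 to 58274665 of chromosome 7 was 3.21-fold higher on 4 and 14 counts (1.01 to 13.4). Its interval barely clears equal levels, and scaling to the listed counts alone ends the call (log2 ratio 1.55). The other 2 Rab21 circRNAs had 4 and 2, and 3 and 3 counts, and the first of these carried 14 further gene names. Rab1a had 16 and 7 counts, 2.49-fold lower with an interval that included equal levels (0.970 to 7.16). Rab7a, of late endosomes, had only 2 and 5 counts.

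Most of the Vps hosts are subunits of endosomal complexes. Each of their 14 circRNAs had fewer than 20 counts in both columns together. Vps54, a subunit of the GARP tether that receives vesicles from endosomes at the trans-Golgi network, was the only one called. This circRNA, at 106153575 to 106161579 of chromosome 14, had 2 counts in control against 17 in induction. The ratio of 7.80 (1.85 to 69.6) was the highest of the 96. Vps52 of the same complex had 3 and 5 counts. The retromer subunit Vps26a, the HOPS and CORVET tether subunits Vps11, Vps41 and Vps8, the ESCRT proteins Vps4b and Vps37a, and the lipid transfer proteins Vps13a, Vps13c and Vps13d gave no call. Their counts ran from 2 to 9 in either column. In sum, the Vps circRNAs had 52 and 79 counts, a ratio of 1.39 (0.970 to 2.02).

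Sorting nexins bind phosphoinositides and bend or coat endosomal tubules. None of their 17 circRNAs from 10 hosts was called, with log2 ratios from −1.71 to 1.61, and their sums were almost equal, 238 and 244 counts (ratio 0.940, 0.783 to 1.13). The better covered ones were Snx12 with 52 and 38 counts, Snx13 with 51 and 49, and 1 of 3 circRNAs of Snx27, a retromer partner, with 27 and 34. The intervals of these Snx13 (0.583 to 1.33) and Snx27 (0.677 to 1.99) circRNAs lay within 2-fold of equal levels. The sums of Snx29, which has 3 circRNAs, were 15 and 23. Among the SNARE proteins that fuse vesicles, Stx8 had 14 and 28 counts (1.83, 0.934 to 3.77), Stx2 had 3 and 9 and Stx6 had 4 and 2.

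Of 8 circRNAs from hosts of the clathrin route into the cell, 2 were called lower (25%, interval 3.19 to 65.1, against 9.29% of all listed) and none higher. Itsn1 encodes intersectin, a scaffold of clathrin-coated pits. Both of its circRNAs begin at 31943121 on chromosome 11. The one that ends at 31955266 had 29 and 6 counts and was 5.27-fold lower (2.15 to 15.5). The one that ends at 31946043 had 48 and 28 and was 1.87-fold lower (1.15 to 3.09), short of 2-fold. Their sum of 77 and 34 counts was 2.47-fold lower (1.63 to 3.81). Picalm encodes a clathrin assembly protein that binds membrane lipid, and 4 of its 5 circRNAs had ratios below 1. The only call among them, on chromosome 1 from 154405931 to 154425509, rests on 9 and 2 counts (4.91-fold lower, 1.02 to 46.7) and is lost with DESeq2 size factors (log2 ratio −2.24). The Picalm sum was 83 and 51 counts, 1.77-fold lower (1.24 to 2.57). Eps15, another adaptor of coated pits, had a single circRNA with 6 and 8 counts. Together the 8 circRNAs of these 3 adaptor hosts had 166 and 93 counts, 1.95-fold lower (1.50 to 2.54), a sum formed after the values were seen. The 12 circRNAs of other clathrin route genes, Clta, Ap2a1, Ap2a2, Dnm2, Fcho2, Necap1 and Reps1, gathered likewise after the values were seen, gave no call and had 148 and 154 counts (ratio 0.955, 0.757 to 1.20).

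**Figure D3:**
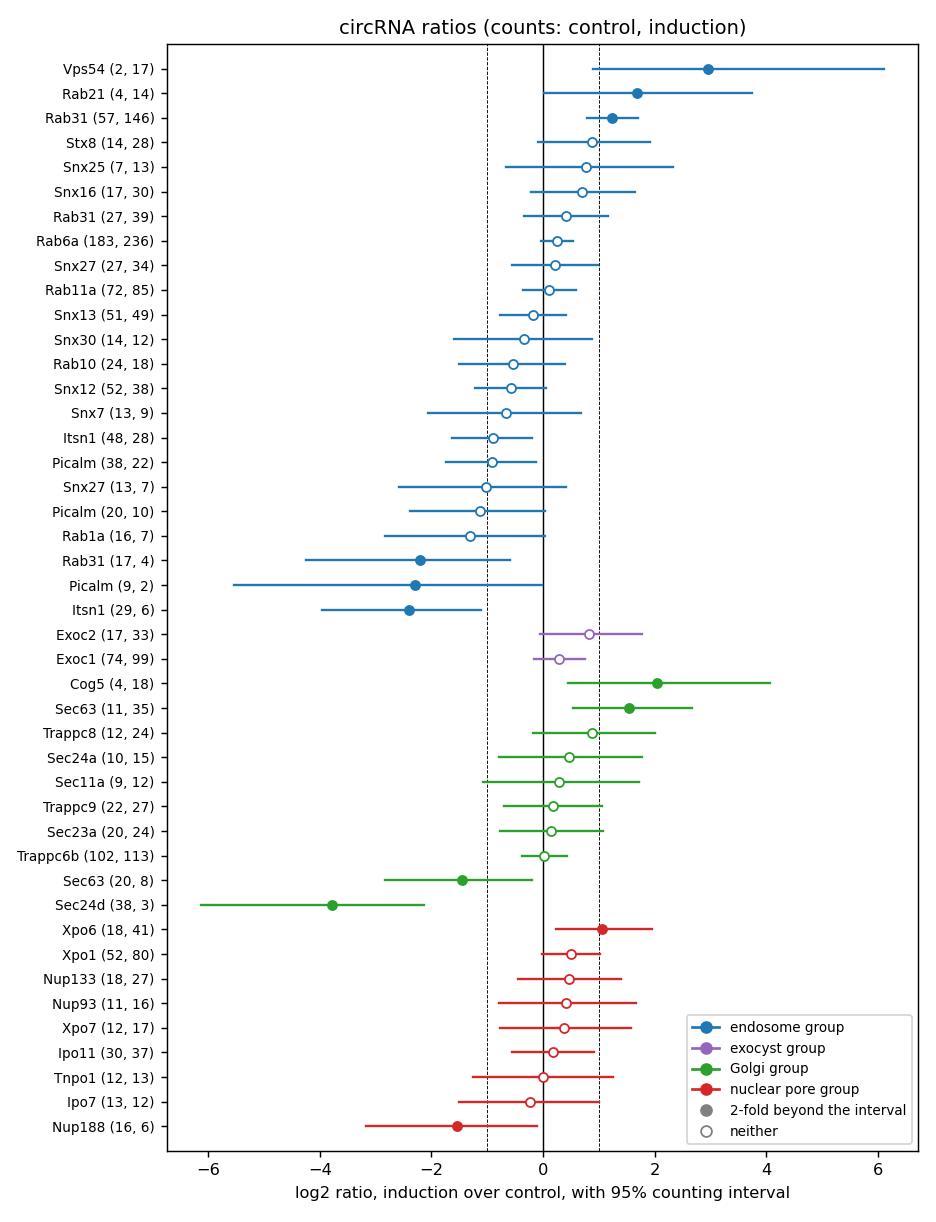
Log2 ratio of induction over control (x axis) with 95% counting intervals for the 44 trafficking and transport circRNAs that had at least 20 counts in both columns together or were called; the 2 counts stand beside each host name, filled points are calls, open points are not, and the dashed lines mark 2-fold. Intervals are widest where a column held fewer than 5 counts, as for Vps54 and Sec24d.

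The exocyst, which holds secretory vesicles at the plasma membrane, was represented by subunits Exoc1 and Exoc2 alone. Exoc1 had 74 and 99 counts (1.23, 0.899 to 1.68), and Exoc2 had 17 and 33 (1.78, 0.964 to 3.41). Neither differed beyond counting error alone. Their sum of 91 and 132 counts had a ratio of 1.33 (1.01 to 1.76), whose interval takes in equal levels once scaled to the listed counts alone (log2 ratio 0.28, −0.12 to 0.68).

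In the Golgi group the largest difference was in Sec24d, a cargo adaptor of the COPII coat. Its circRNA on chromosome 2 from 227528584 to 227529462, which spans 879 nt, had 38 counts in control against 3 in induction. It was 13.8-fold lower (4.38 to 69.9), which is the largest difference in either direction among the 96. None of the other COPII hosts gave a call. Sec24a had 10 and 15 counts, Sec23a had 20 and 24 (1.10, 0.583 to 2.10), and the circRNAs of the outer coat protein Sec31a had 3 and 4, and 4 and 3.

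Elsewhere on the secretory route, Cog5, a subunit of the COG tether within the Golgi, hosted a circRNA at 51145033 to 51155100 of chromosome 6 that had 4 and 18 counts and was 4.13-fold higher (1.36 to 16.8). Sec63, a partner of the protein channel of the endoplasmic reticulum, had 1 circRNA called in each direction, described with the shared ends. Of the TRAPP tether subunits, Trappc6b had 102 and 113 counts (1.02, 0.771 to 1.34), with an interval that lies within 2-fold, and Trappc9 had 22 and 27. The 3 circRNAs of Trappc8 summed to 25 and 34 counts (1.25, 0.723 to 2.18). None of the 6 Trappc circRNAs was called. The circRNAs of Sec11a, a signal peptidase subunit, had 9 and 12, and 2 and 7 counts.

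In nuclear transport the exportin circRNAs all had ratios above 1. Xpo6 encodes the exporter of actin, and its circRNA, at 197545742 to 197549861 of chromosome 1, had 18 and 41 counts (2.09-fold higher, 1.17 to 3.86). Scaled to the listed counts alone it fell short of 2-fold (log2 ratio 0.93). Xpo1, the main exporter of proteins, had 52 and 80 counts (1.41, 0.983 to 2.04), and Xpo7 had 12 and 17. Their 3 circRNAs summed to 82 and 138 counts, a ratio of 1.54 (1.17 to 2.05), a sum formed after the values were seen.

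The 12 circRNAs of importins and transportin gave no call, with sums of 108 and 113 counts (0.960, 0.731 to 1.26). Ipo11 had 41 and 49 counts over 4 circRNAs, the most abundant of them with 30 and 37. Tnpo1, the receptor for many RNA-binding proteins, had 39 and 29 over 4, among them 1 with 12 and 4 counts (3.27-fold lower, 0.991 to 13.9), just inside counting error. Scaled to the listed counts alone, that circRNA is called lower (log2 ratio −1.84). Nucleoporins gave 5 circRNAs. Nup188 belongs to the inner ring of the pore, and its circRNA at 8887351 to 8892631 of chromosome 3 was 2.91-fold lower (16 and 6 counts, 1.08 to 9.07), while Nup93 of the same ring had 11 and 16. Nup107 and Nup133 of the outer ring had 10 and 4 counts in a single circRNA, and 5 and 12, and 18 and 27 counts in 2, none of them called.

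Summed over the host gene, 3 of the 64 hosts were called higher and 3 lower (4.69% each), against 7.79% higher and 9.41% lower of 1965 host sums in the whole table, 17.2% in either direction. The higher ones were Vps54, Cog5 and Xpo6, each with a single circRNA. The lower ones were Sec24d and Nup188, with a single circRNA, and Itsn1 with 2. The Rab31 sum of 103 and 198 counts had a ratio of 1.76 (1.38 to 2.26), beyond counting error but under 2-fold. Most hosts, 45 of 64, had a single listed circRNA, 8 had at least 3, and Picalm had the most with 5. Hosts with several circRNAs made up 29.7% here and 37.2% of all hosts.

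Several hosts gave circRNAs that share 1 back-splice end and differ in the other. This held for 30 of the 96 (31.2%), against 44.6% of the 3703 listed circRNAs with a host and 43.3% of those outside the collagens. The 30 formed 22 pairs in 11 hosts. Positions are given throughout as genomic coordinates, from lower to upper. Strand was not read, so whether a shared end is the donor or the acceptor is not known here. In 7 pairs (31.8%) the partners lay on opposite sides of equal levels, against 44.0% of 1300 such pairs outside the collagens. Partners called in opposite directions occurred in 1 of the 22 pairs (4.55%), in 41 of the 1515 pairs over all hosts (2.71%) and in 4 of the 1300 outside the collagens (0.308%). A single pair gives no comparison of these shares.

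That pair belonged to Sec63. Both circRNAs end at 47522647 on chromosome 20. The one from 47514639 had 20 counts in control against 8 in induction and was 2.73-fold lower (1.15 to 7.15). The one from 47520846, nested within the first, had 11 and 35 and was 2.92-fold higher (1.45 to 6.37). The shorter form made up 35.5% of the Sec63 counts in control (19.2 to 54.6) and 81.4% in induction (66.6 to 91.6). These intervals do not overlap, but they cover counting error only. Both Sec63 calls are lost with an assumed variation of 40% per column, and such shares were not taken for hosts outside the set. The Sec63 sum itself was 31 and 43 counts.

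The 4 Rab31 circRNAs join 2 lower ends with 2 upper ends in each of the 4 possible ways. Those ending at 113416653 had 57 and 146 counts from 113386175 and 2 and 9 from 113414837 (4.13, 0.854 to 39.3). Those ending at 113446886 had 27 and 39 counts from 113386175 (1.33, 0.791 to 2.25) and 17 and 4 from 113414837, 4.63-fold lower (1.51 to 18.9). Reads of the 2 circRNAs with the upper end at 113416653 were 59 and 155 (2.41, 1.77 to 3.31), and those of the 2 with the end at 113446886 were 44 and 43 (0.897, 0.575 to 1.40). Summed by the lower end instead, those from 113386175 were 84 and 185 (2.02, 1.55 to 2.65) and those from 113414837 were 19 and 13 (0.628, 0.285 to 1.34). The form from 113414837 to 113446886 held 16.5% of Rab31 counts in control (9.92 to 25.1) and 2.02% in induction (0.553 to 5.09). The form from 113386175 to 113416653 held 55.3% in control (45.2 to 65.1) and 73.7% in induction (67.0 to 79.7). Neither pair of intervals overlaps, but they cover counting error only. Both shares are parts of the same host sums, and such shares were not taken for hosts outside the set.

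In Picalm and Itsn1 the partners that share an end lay on the same side of equal levels. The 3 Picalm circRNAs with the lower end at 154405931 had 38 and 22, 20 and 10, and 9 and 2 counts from the nearest to the farthest upper end. The 2 Picalm circRNAs without that end had 7 and 10, and 9 and 7. The larger Itsn1 circRNA made up 37.7% of the host's counts in control (26.9 to 49.4) and 17.6% in induction (6.76 to 34.5), and these intervals overlap. A pair of Snx30 circRNAs differs by only 4 nt at the upper end, 77114667 and 77114671 on chromosome 5, with 14 and 12, and 6 and 5 counts. Whether their reads belong to a single junction was not tested.

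**Figure D4:**
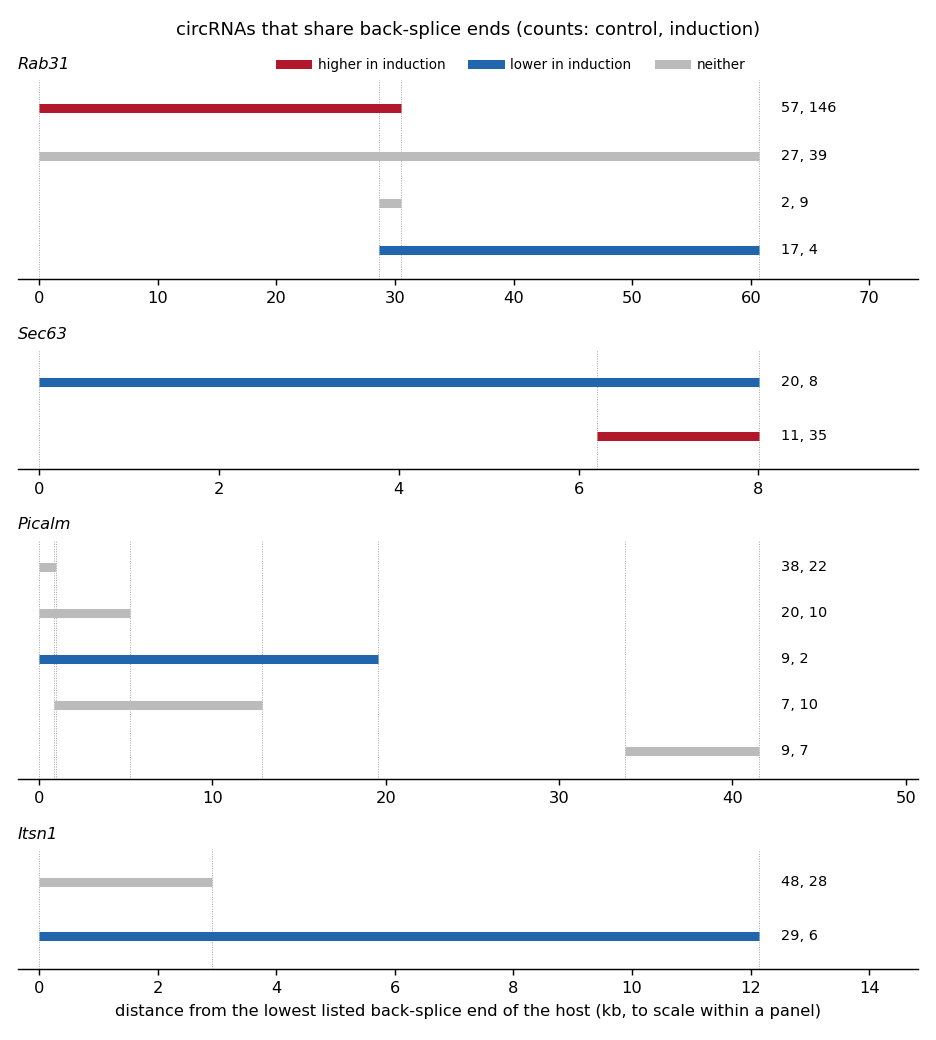
Genomic extent of each listed circRNA of Rab31, Sec63, Picalm and Itsn1, in kb from the lowest listed back-splice end of the host, with dotted lines at the ends and the control and induction counts at the right. Red is higher, blue lower and grey neither; in Sec63 the nested form is higher and the longer form lower, and in Rab31 the higher and lower forms share no end.

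The genomic span of the 96 circRNAs, introns included, had a median of 5793 nt and quartiles of 1813 and 10385 nt, against 5204, 1616 and 14322 nt for all listed circRNAs with a host. The median was 5664 nt over all 4143 listed circRNAs and 6378 nt over the 3800 others without collagen hosts. The members' median thus lay above or below the background depending on which was used. Spans under 1 kb made up 10.4% (18.6% of all with a host), and spans over 20 kb 8.33% (17.1%). The shortest was the Snx27 circRNA on chromosome 2 from 195795435 to 195795666, which spans 232 nt. The longest was that of Trappc9 on chromosome 7 from 113681841 to 114154896, which spans 473056 nt, the longest of all listed circRNAs with a host.

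Genes of the same routes with other names were counted by the same rule, beside 18.5% called among all listed. Of 66 other endosome genes, 18 hosted 41 circRNAs, with 2 called higher and 1 lower (7.32% called, median log2 ratio −0.12). Tbc1d5, which acts on Rab7 and binds retromer, had 1 with 6 and 24 counts (3.67-fold higher, 1.46 to 11.0). The lipid kinase Pikfyve had 1 with 8 and 23 (2.64, 1.14 to 6.82), and Rabep1, an effector of Rab5, had 1 with 27 and 13 (2.26-fold lower, 1.13 to 4.78). The uncalled circRNAs of Tbc1d5 had 13 and 18, and 11 and 13 counts, and those of Pikfyve 8 and 2, and 2 and 2. Those of Rabep1 all had ratios below 1. Of 49 other Golgi and secretory genes, 12 hosted 22 circRNAs, with 2 higher and 3 lower (22.7% called, median −0.065). Uso1, the Golgi tether p115, had 1 with 15 and 52 counts, 3.18-fold higher (1.76 to 6.08), and an uncalled one with 55 and 71. Arfgap3, which acts on the COPI GTPase, had 1 with 3 and 17 (5.20, 1.50 to 27.7). Its uncalled circRNAs went the other way, with 7 and 2, and 8 and 4 counts. Both circRNAs of Stxbp4 were lower, with 18 and 2 counts (9.81-fold, 2.35 to 87.2) and 26 and 7 (4.05-fold, 1.71 to 11.0), and so was 1 of the golgin Gcc2, with 20 and 9 (2.42-fold, 1.05 to 6.04). Of 36 other nuclear transport genes, 7 hosted 11 circRNAs, and 1 of them was called (9.09%), that of the export cofactor Ranbp3 with 25 and 56 counts (2.05-fold higher, 1.26 to 3.44).

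In the authors' deposited table, 9 of the 96 circRNAs (9.38%) had an FDR under 0.05, against 16.9% of all listed circRNAs. Of these, 8 were among the 12 calls, and the ninth was the Itsn1 circRNA with 48 and 28 counts. The 4 calls without such an FDR in the authors' deposited table were those of Rab21, Picalm and Nup188 and the lower Sec63 circRNA. That FDR and the rule used here appear to start from the same pair of counts, although the file headers do not say so. A coefficient of variation of 40% per column was also assumed, with an approximate normal interval on the log ratio in place of the exact one. The rule was then met by 4 of the 12: Vps54 higher, and Sec24d, the larger Itsn1 circRNA and the lower Rab31 circRNA lower. The Rab31 circRNA met it only narrowly, and was not tried with an exact interval widened in the same way. With scaling to the listed counts alone, 4 were higher and 11 lower in place of 6 and 6. The variation between cultures is not known from these columns.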

How the data were processed

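CircRNAs were measured in rat dental follicle cells, 3 control and 3 induction samples per the labels. DNA and linear RNA were removed before sequencing, per the labels' protocols, and the submitters' processing notes name FastQC, BWA and Rnor_6.0. The sources used here do not give the circRNA caller or its filters. The authors deposited whole-number counts, 1 column per group, with at least 1 count in each; how the 3 libraries became 1 column is not given. The deposited TPM values equal the count over a total (203283 in control, 221596 in induction) times 1000000. The deposited log2 ratio, p-value and FDR appear to come from the same counts, which the file headers do not state. For the members, the deposited log2 ratio closely matched that of the counts on these totals. The p-value was not used.

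Ratios were taken on those totals, with exact Clopper-Pearson 95% intervals on the split of the counts, in Python 3.11.15 with SciPy 1.17.1. Intervals on ratios and on shares of counts cover counting error only, since 1 pooled column per group holds no spread between samples. Reads without molecular identifiers are not independent molecules, so these intervals may be too narrow even for that error. Intervals on the share of circRNAs called are binomial over circRNAs, and take those of 1 host as independent. The call rule was tested on simulated data drawn with counting error alone. It was not tested on data with variation between cultures. All 64 host symbols matched the RefSeq table (GRCr8, names only), and 3 of the 96 rows, of Rab21, Vps26a and Ipo8, carried further names. For the background over hosts, the 60 names found on several chromosomes or over more than 5 Mb were dropped. Scaling alternatives used TMM (edgeR 4.0.16) and DESeq2 1.42.0 size factors. The rule for naming took every call, every called host sum, the 3 most abundant circRNAs of each group, hosts with at least 3 circRNAs, exocyst hosts, and up to 6 calls per list of other genes; further hosts were named by role after their values were seen. The members and lists were chosen with earlier results of these data known.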

Additional observations from a re-analysis of the deposited data

How the results depend on the processing

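No paired analysis was possible because the counts are pooled in 1 column per group, with no sample numbers, and for the same reason no replicate could be left out and no count model fitted. The 6 higher and 6 lower circRNAs became 4 and 11 when scaled to listed totals, a shift of −0.13 in each log2 ratio. The calls of Rab21 and Xpo6 are then lost, and the second Itsn1, 2 further Picalm, the Rab1a and a Tnpo1 circRNA are called lower. With a 4-fold threshold there were 2 and 4, with the authors' FDR and 2-fold 5 and 3, and with an assumed coefficient of variation of 40% 1 and 3; the first and last are stricter by construction. TMM, DESeq2 size factors, the minimum of 20 counts and sole gene names kept both counts within 1.5 times, and the host sums stayed so under each alternative run. The log2 ratio of the endosome sum, 0.080, became −0.053 with listed totals, −0.26 without Rab, Stx and Vamp hosts and −0.050 without Rab31, the last chosen after seeing the data. The exocyst sum of 0.41 became 0.83 without Exoc1. The median log2 ratio of the members ran from −0.065 with listed totals to 0.27 with 1 circRNA per host. The depth of about 16.5 counts per circRNA limits all of these.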
